A study of Homo sapiens with 8 samples.

Results

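The miR-99/100 and miR-125 families were examined in small RNA libraries of HEK293 cells, an established human embryonic kidney line, with and without a transfected ASO (antisense oligonucleotide), a synthetic strand designed to pair with a chosen RNA. Members were the entries named miR-99a, miR-99b, miR-100, miR-125a or miR-125b, either arm. This gave 4 of the 2867 entries analysed, namely miR-99a-5p, miR-100-5p, miR-125a-5p and miR-125b-5p, all of them 5p strands. No entry was named miR-99b, so sums and shares by family cover only these 4. The treated group was 4 libraries of cells transfected with 100 nM of the ASO, which the library names link to miR-31, and the control group was 4 libraries of cells given no ASO, all collected at 48 h. The series asked whether the ASO altered small RNAs besides its target. No cells received an unrelated ASO, and whether the controls were mock-transfected is not stated, so an effect of this ASO cannot be told apart from one of transfection. Separate cultures are not stated for the libraries of a group, so the p-values rest on spread that may be only technical.

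Animal microRNAs recognise messenger RNAs mainly through the seed, bases 2 to 8 of the mature strand, and members of a family share it. The miR-99/100 family is among the oldest in animals and is known to repress the growth kinase gene MTOR in human cells. The miR-125 family is the vertebrate counterpart of lin-4 of Caenorhabditis elegans and is known to repress LIN28, whose protein blocks maturation of let-7. In vertebrates both families are encoded together with let-7 microRNAs, which repress RAS genes and HMGA2, in paralogous clusters.

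The 4 mature sequences from RefSeq (GRCh38.p14), with the seed in capitals, show the split into 2 families, and miR-10a-5p is set beside them because its sequence resembles miR-99/100 with a shifted seed.
miR-99a-5p: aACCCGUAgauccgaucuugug
miR-100-5p: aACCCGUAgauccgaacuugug
miR-10a-5p: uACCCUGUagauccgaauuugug
miR-125a-5p: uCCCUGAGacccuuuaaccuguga
miR-125b-5p: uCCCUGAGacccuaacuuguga
Counted from the 5′ end, miR-99a-5p and miR-100-5p differ by 1 substitution, U16A, so a counter that tolerates a mismatch could assign reads of one to the other. The strands of miR-125a-5p (24 bases) and miR-125b-5p (22 bases) are identical over the first 13 bases. miR-10a-5p shares a run of 10 bases with miR-99a-5p that starts at base 7 of miR-10a-5p and base 6 of miR-99a-5p, but it has another seed. Among the known microRNAs of the table that matched RefSeq by name, no entry other than the 4 members carried either seed.

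The members come from 3 loci on GRCh38. miR-99a-5p lies at chr21:16539101-16539122 (plus strand) within an intron of MIR99AHG, a long noncoding RNA gene, 737 bases before let-7c-5p and 51152 bases before MIR125B2, measured between the starts of the mature strands. miR-100-5p lies at chr11:122152275-122152296 (minus strand) within an intron of the noncoding gene MIR100HG, with let-7a-2 at 5707 bases and MIR125B1 at 52466 bases. The same mature miR-125b-5p is made from both of these loci (chr11:122099809-122099830 on the minus strand and chr21:16590253-16590274 on the plus strand), so its reads cannot be divided between them. miR-125a-5p lies at chr19:51693268-51693291 (plus strand) within an intron of the protein-coding gene SPACA6, 475 bases after let-7e-5p. An exon of the opposite-strand lincRNA SPACA6P-AS also covers it.

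Library totals over all 2867 entries ran from 8168828 to 11677123 counts. Levels are CPM, counts scaled to a common total over the 745 entries kept for testing. They are further scaled by TMM, which aligns libraries on entries that vary little. A read holds the whole mature strand, so no division by length was made. Adapter ligation favours some sequences over others, so differences in level between microRNAs are less certain than those between libraries. miR-31-5p, the presumed target by the library names, had 837 ± 166 CPM with ASO against 736 ± 305 CPM in controls (SD, n = 4 each), so it did not check the labels.

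miR-99a-5p had 1797, 1665, 1738 and 1948 CPM with ASO (libraries 1 to 4), against 2754, 2325, 1948 and 1872 CPM in the controls (libraries 1 to 4). The groups overlapped, and control library 1 was the highest of all. On average it reached 1787 ± 120 CPM with ASO against 2225 ± 405 CPM in controls (SD, n = 4 each).

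miR-100-5p, its near-twin in sequence, had 269, 276, 297 and 299.9 CPM with ASO (libraries 1 to 4), against 407, 359, 322 and 314 CPM in the controls (libraries 1 to 4). All 4 ASO libraries lay below all 4 controls, with control library 1 again the highest. On average it reached 286 ± 15.3 CPM with ASO against 350.4 ± 42.4 CPM in controls (SD, n = 4 each).

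miR-125a-5p, the most abundant member and the 26th entry by mean level among those tested, had 9855, 12420, 13318 and 10612 CPM with ASO (libraries 1 to 4), against 6870, 8539, 10271 and 10697 CPM in the controls (libraries 1 to 4). The groups overlapped, and control library 1 was here the lowest of all. On average it reached 11551 ± 1595 CPM with ASO against 9094 ± 1752 CPM in controls (SD, n = 4 each).

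miR-125b-5p, which shares the miR-125a seed, had 142, 192, 194 and 160.0 CPM with ASO (libraries 1 to 4), against 99.4, 143, 169 and 169 CPM in the controls (libraries 1 to 4). Again the groups overlapped and control library 1 was lowest. On average it reached 172 ± 25.6 CPM with ASO against 145 ± 32.8 CPM in controls (SD, n = 4 each). Its smallest count, 1002 in control library 1, gives a Wilson 95% interval of 89.7 to 102 CPM, taken over all entries and before TMM scaling. Counting error was thus smaller than the spread between libraries. Such intervals cover counting error only, since copies made by PCR are not independent molecules.

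**Figure D1:**
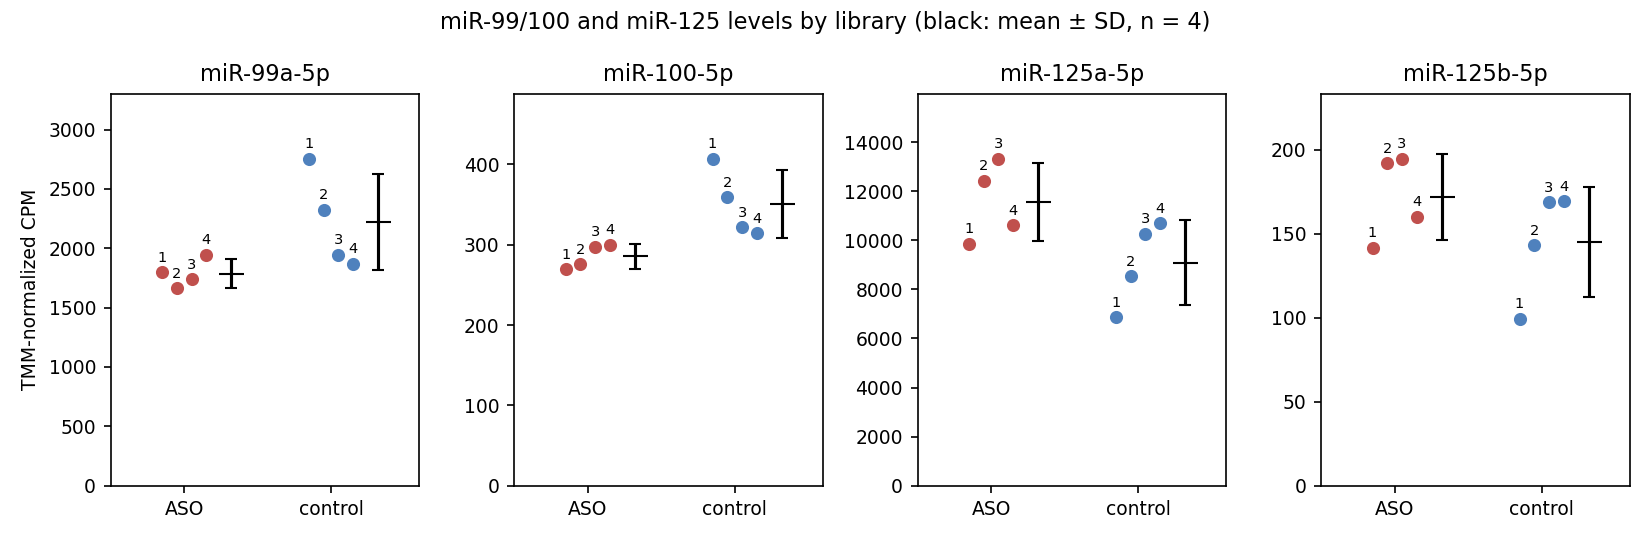
TMM-normalized CPM of the 4 members in each library (points, numbered by library), ASO left of control, with mean ± SD (black, n = 4 per group); each panel has its own axis from 0. miR-100-5p is the member whose groups do not overlap, and control library 1 is the highest control for miR-99a-5p and miR-100-5p and the lowest for miR-125a-5p and miR-125b-5p.

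The order of levels was the same in all 8 libraries, and the ranges of neighbours did not overlap. The mean of miR-125a-5p over the 8 libraries was 5.15 times that of miR-99a-5p, which was 6.31 times that of miR-100-5p, which was 2.01 times that of miR-125b-5p. Among the entries listed, which lack miR-99b, each family was therefore carried mainly by 1 member. miR-99a-5p made up 85.4% to 87.1% of the summed CPM of its seed across libraries, and miR-125a-5p 98.4% to 98.6% of its own. Summed by seed, miR-99a-5p and miR-100-5p had 2072 ± 128 CPM with ASO against 2575 ± 447 CPM in controls, and the miR-125 pair had 11723 ± 1620 CPM with ASO against 9239 ± 1784 CPM in controls (SD, n = 4 each). The log2 ratio of these group means was −0.31 for the miR-99/100 sum, or −0.20 without control library 1, and 0.34 for the miR-125 sum, or 0.23 without it.

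With ASO, the means of both miR-99/100 members were lower and those of both miR-125 members higher than in controls, and none of the 4 differences passed the test. In edgeR's quasi-likelihood test, miR-99a-5p had a log2 fold change of −0.32 (SE 0.13, 95% interval −0.62 to −0.02, adjusted p = 0.445). That of miR-100-5p was −0.30 (SE 0.10, 95% interval −0.52 to −0.07, edgeR adjusted p = 0.402). The corresponding value for miR-125a-5p was 0.35 (SE 0.16, 95% interval −0.03 to 0.72, edgeR adjusted p = 0.445), and for miR-125b-5p 0.25 (SE 0.19, 95% interval −0.20 to 0.69, edgeR adjusted p = 0.617). Leaving out control library 1 gave −0.18 for miR-99a-5p, −0.20 for miR-100-5p, 0.24 for miR-125a-5p and 0.11 for miR-125b-5p. The intervals with all 8 libraries allow miR-125a-5p to be up to 0.72 higher on the log2 scale with ASO, so the test does not show that levels were alike.

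Of the 4 members, 0 passed an adjusted p of 0.05 in edgeR, where 1 of the 745 tested entries (0.134%) did, and 0 passed in DESeq2, where 4.52% of the entries given an adjusted p did. At an unadjusted edgeR p under 0.05 there were 2 members, miR-99a-5p and miR-100-5p, against 10.5% of all tested entries. The groups did not overlap in 1 member, miR-100-5p, against 8.32% of all tested entries. The members' median log2 fold change was −0.02, with 2 above 0 and 2 below, and that of all 745 entries was 0.01.

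**Figure D2:**
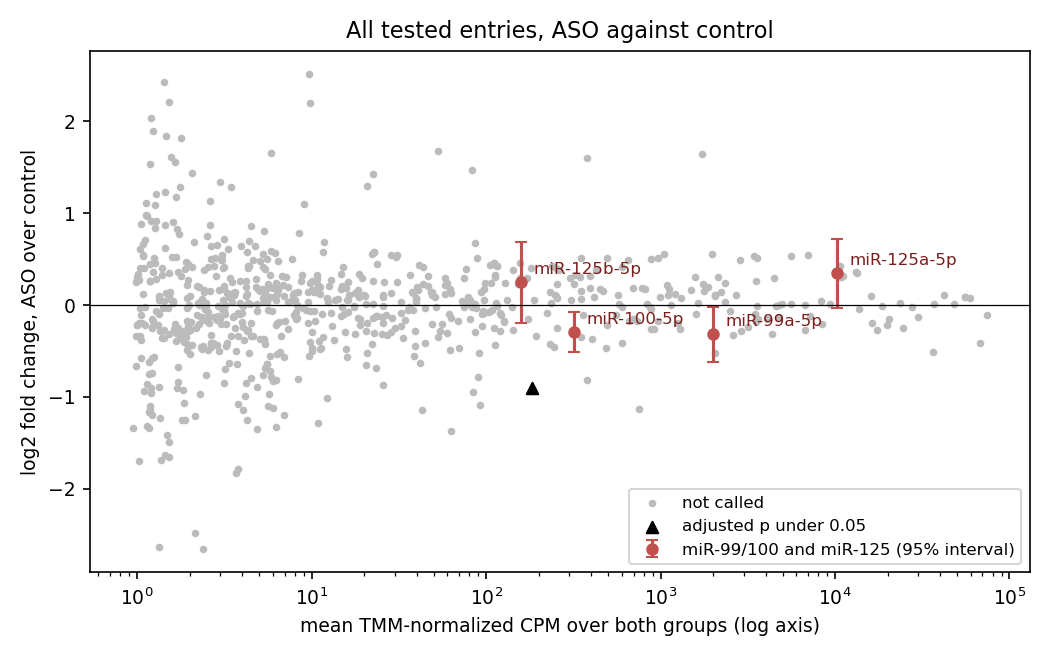
Log2 fold change, ASO over control, against mean TMM-normalized CPM (log axis) for the 745 tested entries (grey), with the 4 members in red with 95% intervals and the 1 entry with an edgeR adjusted p under 0.05 as a black triangle. The members lie within the spread of entries of like abundance, 2 above and 2 below 0.

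Members of a family kept a near-constant ratio to each other from library to library, and their genes lie on different chromosomes. So close a relation was not particular to families. miR-339-5p, outside them, followed miR-125a-5p with Pearson's r = 0.998 over the 8 libraries. Whether reads of miR-99a-5p and miR-100-5p were in part assigned to each other was not tested. Per 1 count of miR-99a-5p there were 0.160 ± 0.00983 counts of miR-100-5p with ASO and 0.159 ± 0.00938 in controls (SD, n = 4 each). The difference in mean log2 ratio was 0.01, with SDs of 0.09 and 0.09 (exact two-sided permutation test, p = 0.800; adjusted over 5 pairs, 0.800). miR-125a-5p had 67.3 ± 2.16 counts per count of miR-125b-5p with ASO and 63.2 ± 4.17 in controls (SD, n = 4 each), a pair described after its values were seen and not tested. The highest library exceeded the lowest 1.16-fold in the first ratio and 1.17-fold in the second.

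Partners from a single cluster did not hold such a ratio. On chromosome 21, miR-99a-5p had 12.7, 8.68, 8.94 and 12.2 counts per count of miR-125b-5p with ASO (libraries 1 to 4), against 27.7, 16.2, 11.6 and 11.1 in the controls (libraries 1 to 4). The highest library was 3.19-fold above the lowest, and control libraries 1 and 2 stood above the other 6. The mean log2 ratio, 3.39 ± 0.29 with ASO against 3.95 ± 0.61 in controls (n = 4 each), differed by −0.57 (exact two-sided permutation test, p = 0.171; adjusted over 5 pairs, 0.214), which was −0.29 without control library 1.

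On chromosome 11, miR-100-5p had 1.90, 1.44, 1.53 and 1.87 counts per count of miR-125b-5p with ASO (libraries 1 to 4), against 4.09, 2.51, 1.91 and 1.86 in the controls (libraries 1 to 4). The groups overlapped through control library 4. The mean log2 ratio differed by −0.55, being 0.74 ± 0.20 with ASO and 1.30 ± 0.53 in controls (exact two-sided permutation test, p = 0.114; adjusted over 5 pairs, 0.214), and by −0.31 without control library 1. Because miR-125b-5p pools 2 loci, neither ratio belongs to a single transcript.

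The let-7 partners varied little. let-7e-5p had 9368 ± 648 CPM with ASO against 9314 ± 337 CPM in controls (SD, n = 4 each). let-7c-5p had 2457 ± 209 CPM with ASO against 2564 ± 57.6 CPM in controls. let-7a-5p, which is also made at other loci, had 48144 ± 1912 CPM with ASO against 47874 ± 1084 CPM in controls. miR-125a-5p, made 475 bases from let-7e-5p, had 1.03, 1.37, 1.53 and 1.04 counts per count of it with ASO (libraries 1 to 4), against 0.707, 0.906, 1.15 and 1.16 in the controls (libraries 1 to 4). The difference in mean log2 ratio was 0.35 (exact two-sided permutation test, p = 0.171; adjusted over 5 pairs, 0.214), and 0.20 without control library 1. For miR-99a-5p over let-7c-5p the difference was −0.24 (exact two-sided permutation test, p = 0.171; adjusted over 5 pairs, 0.214), and −0.12 without control library 1. None of the 5 pairs passed the adjusted threshold, and 4 against 4 libraries allow no exact p below 0.0286.

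The sequence relatives miR-10a-5p and miR-10b-5p, which are encoded in HOX gene clusters, were high in control library 1, as miR-99a-5p was. miR-10a-5p had 28444 ± 1589 CPM with ASO against 31084 ± 5419 CPM in controls, and miR-10b-5p 22474 ± 1766 CPM with ASO against 26796 ± 6251 CPM in controls (SD, n = 4 each). In control library 1 they stood at 38908 and 35925 CPM, each the highest of the 8 libraries. Of the 5 tested let-7 and miR-10 entries, 0 passed the threshold in edgeR (adjusted p 0.515 to 0.972) or DESeq2, and 0 had an unadjusted edgeR p under 0.05.

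**Figure D3:**
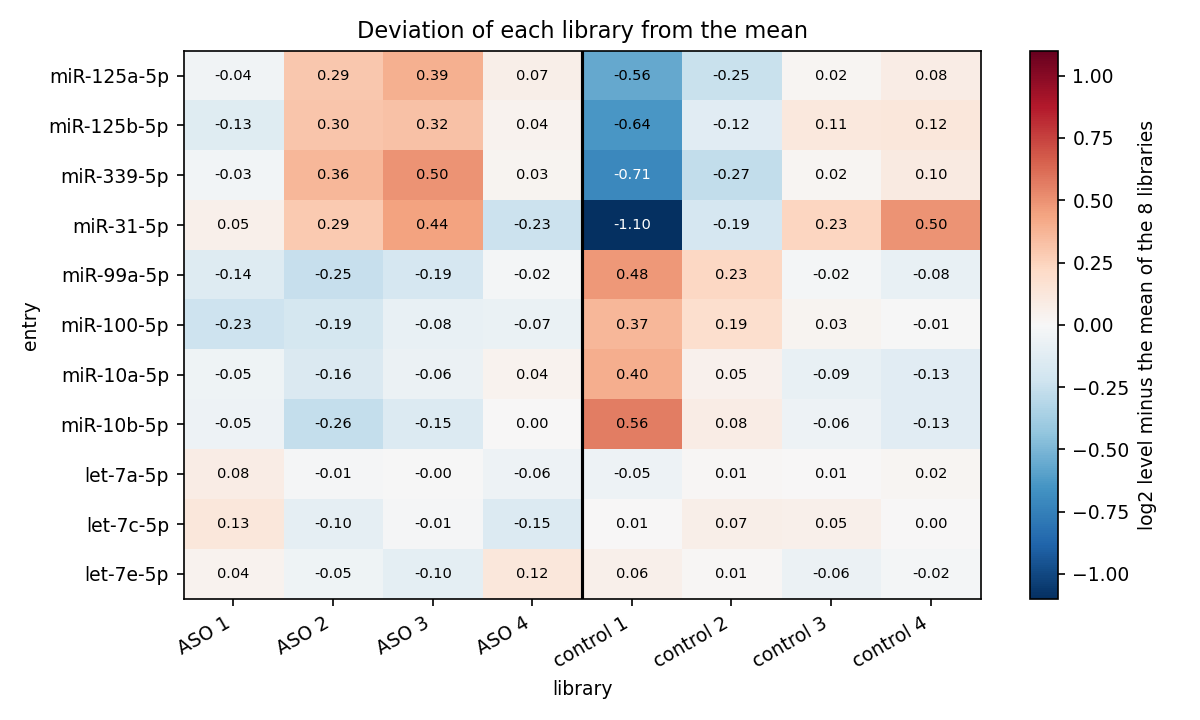
Log2 level of each library minus the mean of the 8 libraries (number and colour, red above and blue below the mean) for the 4 members, miR-339-5p, the presumed target miR-31-5p, the miR-10 entries and the let-7 partners, with ASO libraries left of the line and controls right. In control library 1 miR-125a-5p and miR-125b-5p are at −0.56 and −0.64 while miR-99a-5p and miR-100-5p are at 0.48 and 0.37, and the let-7 entries stay between −0.15 and 0.13 in every library.

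The ratio of the families varied more between libraries than the ratios within them, most of all through control library 1, where the miR-125 members were low and the miR-99/100 members high. In ASO library 1 all 4 members were below their own means over the 8 libraries. The summed miR-125 CPM was 4.84, 6.50, 6.64 and 4.79 times the summed miR-99/100 CPM with ASO (libraries 1 to 4), against 2.21, 3.24, 4.60 and 4.97 times in the controls (libraries 1 to 4). The groups overlapped through control library 4, and the highest value was 3.01-fold above the lowest. Control library 1 was the end of a graded series, since the ratio rose from control library 1 to control library 4. Dixon's test for an outlier among the 4 libraries of a group flagged 0 of 20 sets tested (member levels and pair ratios). The mean was 5.69 ± 1.01 with ASO (n = 4), 3.75 ± 1.27 in controls (n = 4) and 4.27 ± 0.914 in controls without library 1 (n = 3).

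All 6 pairs of members were correlated over the 8 libraries, as log2 CPM, with exact permutation p-values adjusted over the 6 pairs. miR-125a-5p with miR-125b-5p gave Pearson's r = 0.96 (exact permutation p = 0.000744, adjusted 0.00446) and Spearman's rho = 0.95 (exact permutation p = 0.00114, adjusted 0.00685). Without the 2 libraries farthest from the median of miR-125a-5p, ASO library 3 and control library 1, r was 0.89. miR-99a-5p with miR-100-5p gave r = 0.95 (exact permutation p = 0.00258, adjusted 0.00565) and rho = 0.86 (exact permutation p = 0.0107, adjusted 0.0321), and r was 0.70 without control libraries 1 and 2. Values of this size were not rare outside the families. miR-10b-5p also had r = 0.95 with miR-99a-5p, yet ranked only 20th of 316 known non-members. The p-values therefore do not set family pairs apart from other pairs.

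Between the families, miR-99a-5p with miR-125a-5p gave r = −0.94 (exact permutation p = 0.00283, adjusted 0.00565) and rho = −0.81 (exact permutation p = 0.0218, adjusted 0.0436), and r was −0.70 without control libraries 1 and 2. miR-99a-5p with miR-125b-5p gave r = −0.89 (exact permutation p = 0.0111, adjusted 0.0166) and rho = −0.74 (exact permutation p = 0.0458, adjusted 0.0688), and r was −0.52 without these 2 libraries. The relation of miR-100-5p to miR-125a-5p (r = −0.82, exact permutation p = 0.0238, adjusted 0.0285; rho = −0.60, exact permutation p = 0.132, adjusted 0.159) went to r = −0.13 without control libraries 1 and 2. That of miR-100-5p to miR-125b-5p did not pass (r = −0.74, exact permutation p = 0.0690, adjusted 0.0690; rho = −0.40, exact permutation p = 0.327, adjusted 0.327) and turned to 0.18 without them. These 2 libraries lay farthest from the median of miR-100-5p. Leaving them out narrows its range, so the change in r does not show that either relation rests on them. With the mean of each group removed first, an alternative chosen after seeing the data (exact permutation within groups, adjusted over the 6 pairs), r was 0.98 for the miR-125 pair (p = 0.00174, adjusted 0.0104) and 0.92 for miR-99a-5p with miR-100-5p (p = 0.0208, adjusted 0.0312). For miR-99a-5p it was −0.90 with miR-125a-5p (exact permutation p = 0.0156, adjusted 0.0312) and −0.89 with miR-125b-5p (exact permutation p = 0.0191, adjusted 0.0312). For miR-100-5p it was −0.67 with miR-125a-5p (exact permutation p = 0.149, adjusted 0.149) and −0.68 with miR-125b-5p (exact permutation p = 0.122, adjusted 0.146), so neither passed, and without control library 1 these were −0.22 and −0.12. Leaving out that library also gave 0.79 for miR-99a-5p with miR-100-5p and 0.97 for the miR-125 pair. For miR-99a-5p it then gave −0.77 with miR-125a-5p and −0.68 with miR-125b-5p. Before TMM scaling, the CPM values of a library share a fixed total.

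Some microRNAs outside the families followed the most abundant member of each, miR-125a-5p and miR-99a-5p, more closely than its own family partner did, by Pearson's r. Among 316 known non-members with a mean count of at least 100, those with the highest Pearson's r to miR-125a-5p over the 8 libraries were miR-339-5p (0.998), miR-708-5p (0.99) and miR-942-5p (0.99). miR-339-5p ranked the 8 libraries exactly as miR-125a-5p did, with 683 ± 121 CPM with ASO against 512 ± 121 CPM in controls (SD, n = 4 each), and its edgeR log2 fold change was 0.41 (SE 0.20, adjusted p = 0.445). Those most like miR-99a-5p were miR-3158-3p (0.98), miR-3909 (0.98) and miR-671-3p (0.97). miR-3158-3p had 74.8 ± 5.80 CPM with ASO against 108 ± 27.9 CPM in controls, where control library 1 held the highest level at 142 CPM, and its edgeR log2 fold change was −0.52 (SE 0.18, adjusted p = 0.412). These coefficients were picked as the highest of 316 and describe these 8 libraries. miR-10b-5p ranked 20th for likeness to miR-99a-5p and the presumed target miR-31-5p 60th for likeness to miR-125a-5p (r = 0.87), and miR-31-5p was at its lowest, 349.8 CPM, in control library 1. Whether a property of control library 1 or of its cells sets these patterns was not tested.

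**Figure D4:**
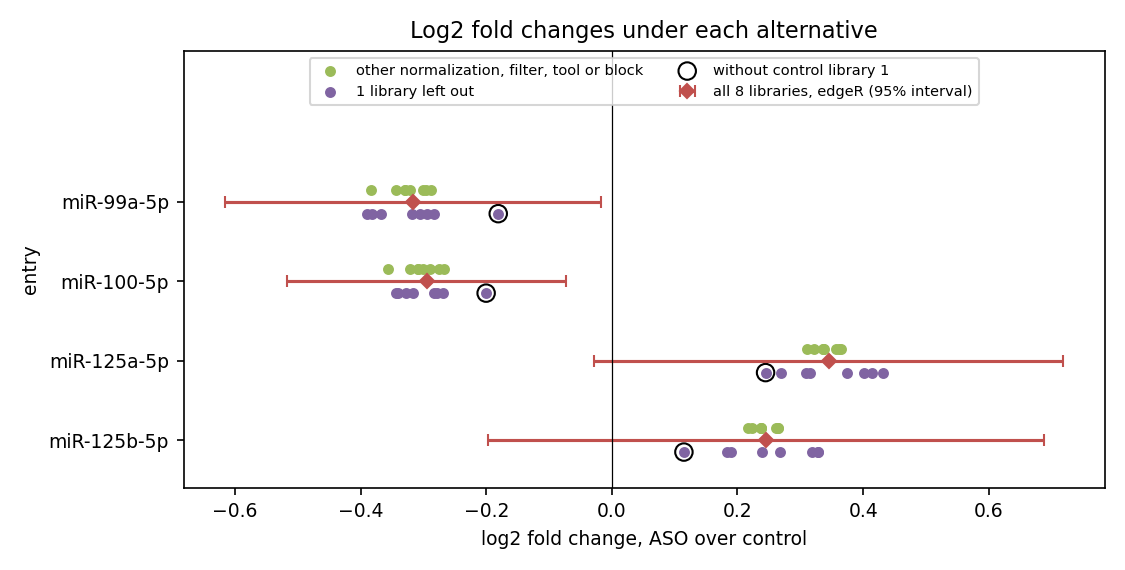
Log2 fold change, ASO over control, of each member with all 8 libraries (red diamond, 95% interval), under other normalizations, filters, tools or a block (green) and with 1 library left out (purple), with the value without control library 1 circled. Each member keeps its sign throughout, and the value nearest to 0 is the one without control library 1 in all 4 members.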

How the data were processed

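The authors deposited 1 table with a count per microRNA entry and library, whole numbers that are not normalized, and 8 columns headed TPM. On testing these were CPM: each equals the deposited count scaled to its library total within 0.223 CPM. The deposited lengths carry no stated meaning and served only to describe entries. GRCh38, bcl2fastq 2.20, Trimmomatic 0.30 and edgeR 3.4.6 are named in the submitters' processing notes. Which aligner, counter and annotation were used is not given in the sources used here. Per the labels' protocols, total RNA came from a Qiagen miRNeasy extraction and the libraries from the NEB small RNA workflow.

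Libraries were grouped by title. Entries needed values above 0 in 4 or more libraries and an average of 10 or more counts. The 745 of 2867 that met this, all 4 members among them, were tested with edgeR 4.0.16 (TMM, quasi-likelihood, two-sided, Benjamini-Hochberg over all 745) in R 4.3.3. The fit was tested on simulated data, with set changes larger than those of the members, so it gives no assurance at their size. Standard errors are the log2 fold change over the root of F. Ratios used counts with 0.5 added, and exact permutation tests ran in SciPy 1.17.1. Members, partner lists and tests were chosen with earlier results of these data known. Named non-members were the let-7 partners, miR-10, the presumed target, and for the most abundant member of each family the 3 entries with the highest r. Libraries of a group differed pairwise beyond counting noise (chi-square divided by its degrees of freedom, 135 to 801), which speaks only to repeat deposits of a library and not to whether cultures were separate. Alternatives were other scalings, filters, DESeq2 1.42.0, a replicate block and leaving out each library. Loci come from RefSeq (GRCh38.p14) and GENCODE.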

Additional observations from a re-analysis of the deposited data

How the results depend on the processing

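In all 16 alternatives 0 members were called, and each member kept the direction of its log2 fold change. Leaving out 1 library gave −0.39 to −0.18 for miR-99a-5p, −0.34 to −0.20 for miR-100-5p, 0.24 to 0.43 for miR-125a-5p and 0.11 to 0.33 for miR-125b-5p, with the value nearest to 0 without control library 1 in each case; edgeR adjusted p stayed between 0.222 and 0.888. The lowest adjusted p of a member over the other alternatives was 0.0890, for miR-100-5p in DESeq2. The count of all entries called, 1 in the test reported, was 0 with no filter, 5 with a mean count of at least 100, 4 among known microRNAs only and 21 with DESeq2, and 0 to 5 with 1 library left out (0 without control library 2, 5 without control library 4, 2 without library 1 or 4 of the ASO group or without library 1 or 3 of the controls). The ratio of miR-100-5p to miR-99a-5p had no stable sign, at −0.022 to 0.043 (log2) with 1 library left out, and turned to −0.0043 without ASO library 2, −0.0202 without ASO library 3, −0.0218 without control library 1 and −0.0007 without control library 2.

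Same-numbered libraries of the groups showed little shared deviation (r of −0.01, 0.04, 0.25 and −0.04 for numbers 1 to 4). Differently numbered libraries had r from −0.22 to 0.15, so the value for number 3 was the highest of all. The numbers were not taken to pair the libraries. With the number as a replicate block 0 entries were called, members stood at −0.30, −0.29, 0.36 and 0.26 (miR-99a-5p, miR-100-5p, miR-125a-5p, miR-125b-5p; edgeR adjusted p = 0.509 each), and the ratio of miR-100-5p to miR-99a-5p differed by 0.01 with an exact sign-flip p of 0.875. With 4 pairs that test cannot go below 0.125, nor the permutation test with 1 library left out below 0.0571, so neither could pass. With group means removed, the correlation of miR-100-5p with miR-125a-5p no longer passed (r = −0.67, exact permutation, adjusted p = 0.149), and the other 5 kept their direction and side of the threshold. The planned comparison of 5p with 3p arms was not run, since the 4 members are all 5p strands.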

Other observations

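The table gives let-7c-5p a length of 18, against 22 bases in RefSeq. Over its first 18 bases the RefSeq strand of let-7c-5p is identical to that of let-7a-5p, and the 2 differ by the substitution A19G, counted from the 5′ end of let-7a-5p.
let-7a-5p: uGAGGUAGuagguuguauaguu
let-7c-5p: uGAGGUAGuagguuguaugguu
let-7e-5p: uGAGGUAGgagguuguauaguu
The capitals mark the shared seed, and let-7e-5p already differs from let-7a-5p at G9U. If the table's length is that of the sequence counted, those 18 bases alone could not separate let-7c-5p from let-7a-5p, and the ratio of miR-99a-5p to its neighbour let-7c-5p would be uncertain. The 2 entries were not given the same counts, with 494713 for let-7a-5p and 26679 for let-7c-5p in ASO library 1. How reads were divided between them was not tested. Of 796 known entries matched to RefSeq by name, 375 had the same length, 145 were shorter in the table, 7 of them by at least 3 bases, and 276 were longer. The members were given lengths of 21 (miR-99a-5p and miR-125b-5p), 22 (miR-100-5p) and 23 (miR-125a-5p), and over these lengths none is identical to the start of another RefSeq microRNA.

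Markers of other cell types were summed over each list in CPM before TMM scaling. The brain list was the highest of them in both groups, through miR-9-5p alone. The 1 of 5 blood markers with a value, miR-142-3p, was listed at 0 in every ASO library and at 0 to 0.381 CPM in controls. The 3 muscle markers summed to 5.46 to 9.25 CPM with ASO and 4.99 to 7.21 CPM in controls, and the 4 fibroblast and smooth muscle markers to 122 to 131 CPM with ASO and 119 to 128 CPM in controls. The liver marker miR-122-5p had 25.3 to 41.5 CPM with ASO and 10.3 to 14.3 CPM in controls, and 2 of 3 brain markers, miR-9-5p and miR-138-5p, summed to 2972 to 3525 CPM with ASO and 3454 to 3619 CPM in controls. Of these, miR-138-5p had only 3.39 to 6.08 CPM with ASO and 4.77 to 6.75 CPM in controls after TMM scaling. The remaining brain marker, miR-124-3p, had no entry. The 4 microRNAs listed as abundant in HEK293 cells (miR-10a-5p, miR-10b-5p, miR-196a-5p and miR-7-5p) summed to 101741 to 120305 CPM with ASO and 114729 to 171202 CPM in controls.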
